A study of Mus musculus with 6 samples.

Results

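Imprinted genes outside the Dlk1-Dio3 region were followed in the fetal lung of mice that lack Dppa2. They are a list of 40 genes, chosen by name and with earlier results of these data known. Of these, 20 are known to be expressed from the paternal copy, 19 from the maternal copy and Gnas from either, depending on the transcript. A probe could be named for 39 of the 40, among 18217 named genes on the array, and 37 passed the filter on dim probes and were tested among 19867 features. H19 had no probe named through the gene table used and was not analysed here, so that Igf2 alone stands for the Igf2-H19 domain. The probe of Peg10, a retrotransposon-derived placental gene, lay below background on all 6 arrays, and that of Zim1, a zinc finger gene of the Peg3 domain, was above background on 2 of 3 wild type and 2 of 3 knockout arrays. Neither was tested.

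Imprinted genes carry DNA methylation set in the germ line of a parent, so that in the embryo a gene is read mainly from the copy of the father or of the mother. They lie in clusters that share a control region, and many act on fetal growth: as a rule, paternally expressed genes such as Igf2 favour growth and maternally expressed genes such as Cdkn1c, Grb10 and Igf2r restrain it. Most are strongly expressed before birth and fall in the lung and other organs after it. Dppa2 (ECAT15-2) and its partner Dppa4 (ECAT15-1) are nuclear proteins of pluripotent cells and the early embryo.

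RNA from whole lungs of 6 embryos at E18.5, shortly before birth and 1 embryo per array, was measured on 1-colour arrays. Wild type embryos (3) had the genotype 15-1+/+, 15-2+/+. Those called knockout (3) had 15-1Flox/Flox with 15-2-/-, so the floxed Dppa4 allele went with the Dppa2 null allele in every knockout. The line was derived in 129Sv embryonic stem cells, bred with C57/BL6 and crossed to a Cre or FLPe line whose background is unknown, and the labels give neither sex nor litter. In whole tissue, fewer cells of a type and less RNA per cell cannot be told apart, and total RNA arrays do not separate the parental copies.

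Levels are log2 signal relative to the 75th percentile of the array, so 0 is that percentile, and differences are knockout minus wild type. Between 63.3% and 68.8% of the probes per array lay well above background. Markers of lung epithelium were detected for 13 of 13 genes, at a mean level of 3.58 to 4.05. The Dppa2 probe lay at -3.16, -3.45 and -3.49 in wild types 1 to 3 and at -4.88, -4.92 and -3.99 in knockouts 1 to 3, above background on all 6 arrays, a difference of -1.23 (SE 0.26, adjusted p = 0.0618). Where this probe lies relative to the deleted part is not given in the sources used here, and Dppa4 had a probe below background throughout. Wild types 1 and 2 had signal on 6 of 6 probes for Y-linked genes, while wild type 3 and the 3 knockouts had signal on 4 of 4 Xist probes. Wild types 1 and 2 and knockout 3 shared a slide, and wild type 3 and knockout 3 shared a raw file number in the labels. Proliferation genes differed with the same arrays: the mean level of 14 such genes was 0.83, 0.82 and 1.76 in the wild types and 1.96, 1.59 and 1.64 in the knockouts.

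None of the 37 imprinted genes passed the test at an adjusted p under 0.05, where 1.34% of all features did (267 of 19867, 144 higher and 123 lower in the knockouts). At an unadjusted p under 0.05 there were 12 imprinted genes above and 1 below wild type, 13 of 37, beside 25.8% of all features, or 15.0% above wild type and the rest below. The arrays of the groups did not overlap for 15 of the 37, 13 higher and 2 lower, beside 31.5% of all features (16.5% higher and 15.0% lower). The difference was above 0 for 25 and below 0 for 12, with a median of 0.16, while 9942 of all 19867 features were above 0. Under normexp background correction 21 of 37 (56.8%) were above 0, beside 59.9% of all features.

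Over all arrays, the paternally expressed genes were mostly above wild type in the knockouts, and the maternally expressed genes were split. Of 19 paternally expressed genes tested, 15 had a difference above 0, with a median of 0.35. Of 17 maternally expressed genes, 9 did, with a median of 0.02. At an unadjusted p under 0.05 the counts were 9 higher and 1 lower among the paternally expressed genes and 3 higher and 0 lower among the maternally expressed genes. Calcr, among these 3, passed the filter only through the knockouts. With probes above background on all 6 arrays, 13 of 17 paternally and 8 of 16 maternally expressed genes lay above 0. At that p, 9 and 2 were then higher, and 1 and 0 lower. Of all 18788 features kept by that filter, 2889 were higher and 1983 lower at the same p. The contrast between the classes was not tested. Genes whose imprint is known mainly in placenta or brain gave 5 of 9 above 0, with a median of 0.02, and the widely imprinted maternally expressed genes gave 5 of 9, with a median of 0.05.

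Array by array, and relative to the wild type mean of each gene, the median over the paternally expressed genes was -0.06, -0.04 and 0.13 in wild types 1 to 3 and 0.26, 0.39 and 0.26 in knockouts 1 to 3. Over the maternally expressed genes it was 0.02, -0.01 and -0.02 in the wild types and -0.02, 0.10 and 0.03 in the knockouts. All 3 knockouts thus lay above all 3 wild types for the paternally expressed genes, and the groups overlapped for the maternally expressed genes. Each gene was centred on its wild type mean, so this separation largely restates the median difference by array, and it was not tested. Wild type 3, the wild type without Y-linked signal, was the nearest to the knockouts.

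**Figure D1:**
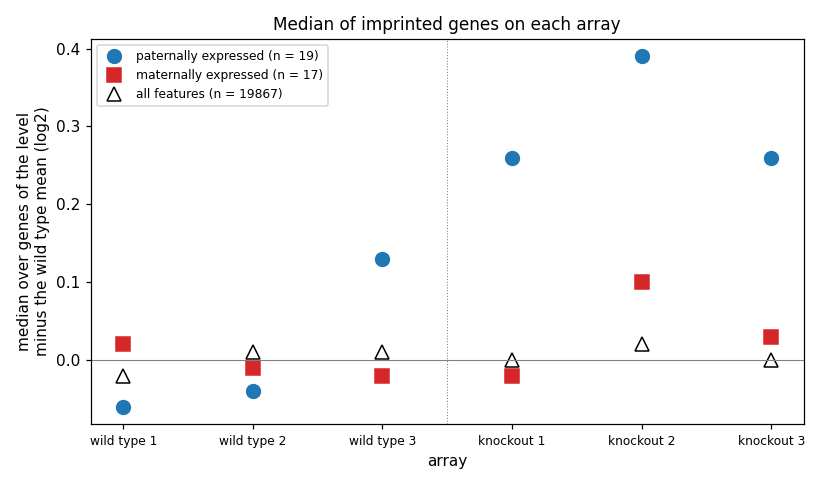
Median level of the imprinted genes on each array (vertical axis, log2, relative to each gene's wild type mean) for the paternally expressed genes, the maternally expressed genes and all features; each point is 1 array. The paternally expressed genes sit between 0.26 and 0.39 in the knockouts and between -0.06 and 0.13 in the wild types, and the maternally expressed genes overlap between the groups.

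The size of the paternal shift depended on which arrays were set against each other. Within the slide that held both groups the median over the paternally expressed genes was 0.32, with 17 of 19 above 0. That fit rests on knockout 3 against wild types 1 and 2, the arrays with Y-linked signal. Within the slide, genotype and Y-linked signal therefore cannot be told apart. With a term for Y-linked signal, which rests on wild type 3 against the 3 knockouts, the median was 0.20, with 14 of 19 above 0. Within the raw file number that held both groups, which rests on wild type 3 and knockout 3, it was 0.09, with 15 of 19 above 0. The maternal medians in these fits were 0.003, 0.10 and 0.10, with 9, 10 and 13 of 17 above 0. Within the raw file number the contrast between the classes was therefore not seen, and with the mean over all probes of a gene 12 of 17 maternally and 16 of 19 paternally expressed genes lay above 0. The proliferation list moved with the same split, with a median difference of 0.67 over all arrays, 0.94 within the slide, -0.04 with the Y-linked term and -0.14 within the raw file number; 14 of its 14 genes were above 0 over all arrays and 0 passed. Its part in the paternal values was not tested.

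The ligand and receptors of the insulin-like growth factor (IGF) axis come first. Igf2 on chromosome 7, the fetal growth factor expressed from the paternal copy, lay at 4.70, 4.92 and 4.77 in the wild types and at 5.07, 5.19 and 5.17 in the knockouts. All knockouts were above all wild types, a difference of 0.35 (SE 0.11, 1.28-fold, adjusted p = 0.113). A further Igf2 probe differed by 0.41. The Igf2 difference was as large in each fit with a further term: 0.38 with the Y-linked term, 0.36 within the slide and 0.40 within the raw file number. It was 0.21 when arrays were scaled to their median and 0.20 under normexp.

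Igf2r on chromosome 17, the maternally expressed receptor that takes IGF2 up for degradation, was at 3.95, 3.81 and 3.89 in the wild types and at 4.20, 4.15 and 4.18 in the knockouts. The groups did not overlap, and the difference was 0.29 (SE 0.10, 1.22-fold, adjusted p = 0.132). It was 0.28 with the Y-linked term, 0.30 within the slide and 0.29 within the raw file number, and 0.15 under either median scaling or normexp. The ligand and its clearance receptor, expressed from opposite parental copies, were therefore both higher in the knockouts, without passing the test.

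Grb10 on chromosome 11 encodes an adaptor that binds insulin and IGF receptors and damps their signal; outside the brain it is expressed from the maternal copy. It was at 4.48, 4.55 and 4.83 in the wild types and at 4.98, 4.92 and 4.90 in the knockouts, a difference of 0.32 (SE 0.13, adjusted p = 0.174). Further Grb10 probes differed by 0.52 and 0.65. No array of the groups overlapped, but wild type 3 lay close to the knockouts, and the difference was 0.10 with the Y-linked term and 0.07 within the raw file number, against 0.39 within the slide.

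The maternally expressed restrainers of growth in the Kcnq1 domain differed less. Cdkn1c, the cyclin-dependent kinase inhibitor p57, was at 5.08, 5.12 and 5.13 in the wild types and at 5.36, 5.24 and 5.21 in the knockouts. The groups did not overlap, with a difference of 0.16 (SE 0.10, adjusted p = 0.349), which turned to -0.07 under normexp background correction. Phlda2, a pleckstrin homology domain protein that limits placental growth, differed by -0.13 with overlapping groups. Plagl1 on chromosome 10, a paternally expressed zinc finger factor that can act on other imprinted genes, was at 4.89, 5.11 and 4.85 in the wild types and 5.03, 5.05 and 5.21 in the knockouts. Its groups overlapped, with a difference of 0.15 (SE 0.12, adjusted p = 0.467), which was -0.03 under normexp background correction.

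**Figure D2:**
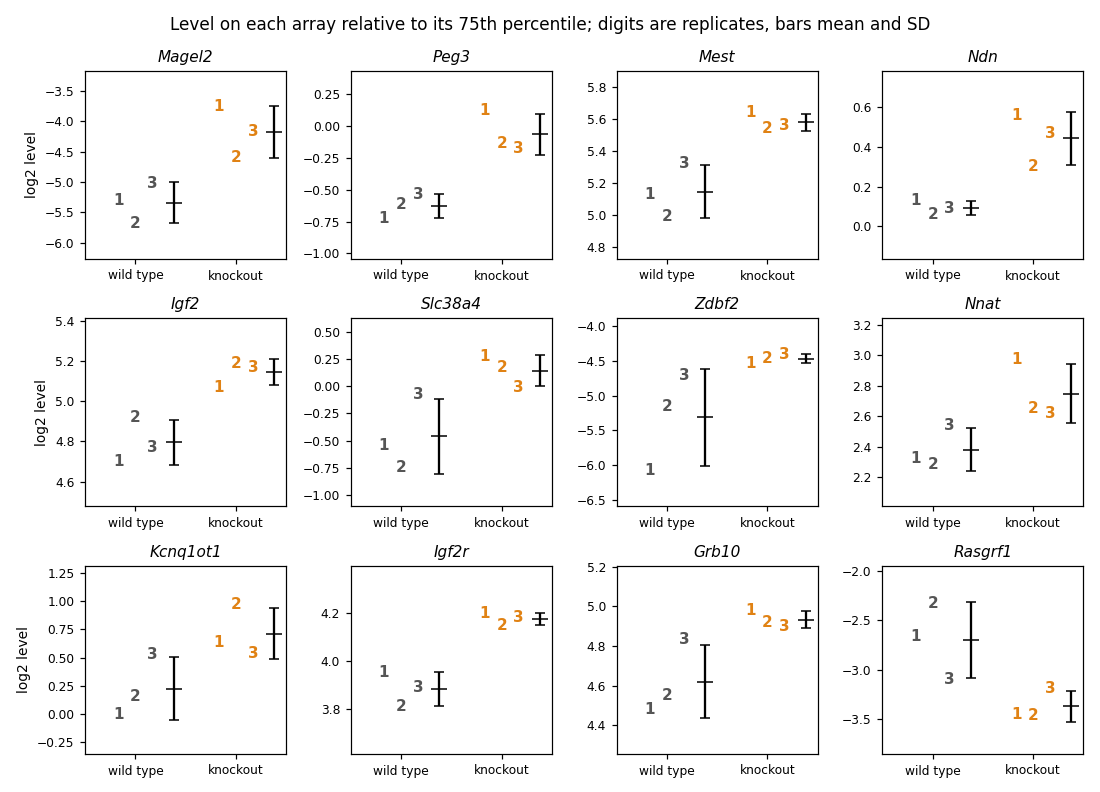
Level on each array (vertical axis, log2 relative to the 75th percentile of the array) for selected imprinted genes, with a digit for each replicate and a bar for the group mean and its SD (n = 3); each panel has its own scale. Igf2, Igf2r, Peg3 and Mest show knockout arrays above every wild type array, and Rasgrf1 shows them below.

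Among the paternally expressed genes, Peg3 and Mest had some of the smallest p-values. Peg3 on chromosome 7, a large zinc finger protein, was at -0.73, -0.62 and -0.54 in the wild types and at 0.12, -0.14 and -0.18 in the knockouts. Every knockout was above every wild type, with a difference of 0.57 (SE 0.12, 1.48-fold, adjusted p = 0.067), and its further probe gave 0.52. The difference was 0.48 with the Y-linked term, 0.50 within the slide and 0.36 within the raw file number. Usp29, a deubiquitinase gene that starts next to Peg3 on the opposite strand, had overlapping groups and a difference of 0.23 (SE 0.29), with a dim probe that was above background on 3 of 3 wild type and 2 of 3 knockout arrays.

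Mest on chromosome 6, an alpha/beta hydrolase fold protein abundant in fetal mesenchyme, was at 5.13, 4.99 and 5.32 in the wild types and at 5.64, 5.54 and 5.56 in the knockouts. The groups did not overlap, and the difference was 0.43 (SE 0.12, 1.35-fold, adjusted p = 0.0946). Its maternally expressed neighbour Copg2, a coatomer subunit, differed by 0.05 with overlapping groups, and further Copg2 probes gave 0.28 and 0.02. Mest differed by 0.26 with the Y-linked term and by 0.24 within the raw file number, and by 0.50 within the slide.

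In the Snrpn domain on chromosome 7, the counterpart of the human Prader-Willi and Angelman region, the MAGE family genes Magel2 and Ndn had the smallest p-values. Magel2, a regulator of ubiquitin ligases and protein trafficking, was at -5.31, -5.68 and -5.02 in the wild types and at -3.75, -4.60 and -4.17 in the knockouts. The groups did not overlap and the difference was 1.16 (SE 0.25, 2.24-fold, adjusted p = 0.0652), though the probe is dim. Ndn, or necdin, which restrains cell division, was at 0.13, 0.06 and 0.09 in the wild types and at 0.56, 0.30 and 0.47 in the knockouts, a difference of 0.35 (SE 0.11, adjusted p = 0.114), again without overlap. The Ndn difference was 0.35 with the Y-linked term, 0.38 within the slide and 0.37 within the raw file number; those of Magel2 were 0.84, 1.32 and 0.84.

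The other 4 tested genes of that domain had overlapping groups. Snrpn, which encodes the spliceosomal protein SmN, differed by -0.16. Mkrn3, a makorin ring finger gene, differed by -0.08, and Peg12, a Frat family gene, by 0.08. Ube3a, the ubiquitin ligase expressed from the maternal copy in neurons, was at 2.22, 2.67 and 2.41 in the wild types and at 1.82, 2.61 and 2.42 in the knockouts, a difference of -0.15 (SE 0.22). The domain was thus split, with 3 of 6 genes above 0.

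Promoter sequence is shown for paternally expressed genes with differences above 0, to set genes whose promoter holds the hexamer TGCCGC, recognised by the imprint keeper ZFP57 when methylated, beside genes whose promoter does not. Each is the 250 bases before the annotated start, from RefSeq on GRCm38.p6, written 5' to 3' on the strand of the gene, and capitals mark the hexamer on either strand. For genes with several starts the one shown was chosen because it holds the hexamer. Mest has 2 hexamers at the start shown, 2 at an overlapping start and 0 at the third; Zdbf2 has 3 at the start shown and 0 at its other start. Plagl1 and Nap1l5 have 1 each. Magel2, Ndn and the 96 bases between the annotated 5' ends of the divergent genes Peg3 and Usp29 have 0.
Mest, chr6:30737800-30738049, + strand: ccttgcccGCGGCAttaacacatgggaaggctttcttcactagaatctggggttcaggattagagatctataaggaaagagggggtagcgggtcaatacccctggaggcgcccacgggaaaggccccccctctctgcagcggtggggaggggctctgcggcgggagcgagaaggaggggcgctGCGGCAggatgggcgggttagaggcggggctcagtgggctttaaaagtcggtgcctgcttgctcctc
Zdbf2, chr1:63200108-63200357, + strand: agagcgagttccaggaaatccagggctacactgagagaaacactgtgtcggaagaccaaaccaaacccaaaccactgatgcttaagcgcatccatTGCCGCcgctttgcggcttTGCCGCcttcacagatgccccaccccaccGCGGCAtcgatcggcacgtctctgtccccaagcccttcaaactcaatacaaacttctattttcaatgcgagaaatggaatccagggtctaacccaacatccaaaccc
Plagl1, chr10:13090582-13090831, + strand: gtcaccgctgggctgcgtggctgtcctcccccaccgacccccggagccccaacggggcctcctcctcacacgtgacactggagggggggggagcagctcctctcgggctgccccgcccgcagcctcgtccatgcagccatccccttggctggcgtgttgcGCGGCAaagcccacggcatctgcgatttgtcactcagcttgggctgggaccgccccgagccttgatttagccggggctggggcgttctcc
Nap1l5, chr6:58907127-58907376, - strand: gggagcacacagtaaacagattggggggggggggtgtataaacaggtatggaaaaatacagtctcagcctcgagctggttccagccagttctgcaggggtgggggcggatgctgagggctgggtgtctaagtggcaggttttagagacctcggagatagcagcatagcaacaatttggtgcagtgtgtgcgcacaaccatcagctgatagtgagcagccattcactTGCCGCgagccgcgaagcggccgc
Magel2, chr7:62376729-62376978, + strand: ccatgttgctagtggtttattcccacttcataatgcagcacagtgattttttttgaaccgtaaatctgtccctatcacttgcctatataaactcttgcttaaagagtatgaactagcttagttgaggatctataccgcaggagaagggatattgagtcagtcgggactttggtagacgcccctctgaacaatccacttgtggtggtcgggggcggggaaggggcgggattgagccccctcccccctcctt
Ndn, chr7:62348027-62348276, + strand: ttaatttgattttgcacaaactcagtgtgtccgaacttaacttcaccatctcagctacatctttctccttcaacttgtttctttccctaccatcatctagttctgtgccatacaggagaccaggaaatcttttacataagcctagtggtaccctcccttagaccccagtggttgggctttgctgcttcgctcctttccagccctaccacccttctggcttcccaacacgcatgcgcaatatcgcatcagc
Between the annotated Peg3 and Usp29 gene ends, chr7:6730463-6730558, + strand: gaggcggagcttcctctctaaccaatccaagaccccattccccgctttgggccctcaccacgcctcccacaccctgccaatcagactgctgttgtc
Over the 33 imprinted genes with an entry, 8 of 51 starts held the hexamer (15.7%), against 8.68% of all 32851 promoters of the same length. The share was 17.9% of 28 starts for paternally and 15.8% of 19 starts for maternally expressed genes. The PLAGL1 core GGGGCCCC was in 3 of 51 starts (5.88%), against 0.889% of all promoters. Several starts belong to the same gene and overlap. The imprinted promoters held a median of 12 CpG sites and 58.0% G and C, against 6 and 52.4% over all promoters. Genes with and without the hexamer both occur among those above wild type: Mest and Zdbf2 hold it at some of their starts, while Magel2 and Ndn do not at the starts listed. The paternally expressed genes below 0, Snrpn, Mkrn3, Rasgrf1 and Zrsr1, held 0 at the starts listed. So did Igf2, Kcnq1ot1, Nnat, Peg12, Peg3, Slc38a4 and Usp29, which were above 0. The sequences shown were chosen from genes above 0, and a link between hexamer and difference was not tested.

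The Kcnq1 domain on chromosome 7 holds a long non-coding RNA and protein genes on its other parental copy. Kcnq1ot1, a paternally expressed RNA known to silence the cluster in cis, was at -0.01, 0.15 and 0.53 in the wild types and at 0.63, 0.97 and 0.54 in the knockouts. The groups did not overlap, by a margin of 0.01 between wild type 3 and knockout 3, and the difference was 0.49 (SE 0.18, adjusted p = 0.155). Its 3 further probes that passed the filter gave 0.33 to 0.65; the 2 that did not pass gave -1.44 and 0.67. The difference was 0.47 within the slide, 0.18 with the Y-linked term and 0.004 within the raw file number.

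The 8 maternally expressed genes of that domain were mixed, and with Kcnq1ot1 4 of 9 lay above 0, with a median of -0.08. Tssc4 was at 2.68, 2.71 and 2.62 in the wild types and at 2.55, 2.46 and 2.45 in the knockouts, without overlap, a difference of -0.19 (SE 0.10, adjusted p = 0.275). Cd81, a tetraspanin of the cell surface, was at 5.32, 5.30 and 5.27 in the wild types and at 5.44, 5.46 and 5.37 in the knockouts, also without overlap, a difference of 0.13 (SE 0.10, adjusted p = 0.428), which was -0.01 when arrays were scaled to their median and -0.06 under normexp. The potassium channel Kcnq1 differed by -0.20, the transporter gene Slc22a18 by -0.08 and the histone chaperone Nap1l4 by -0.08. The placental transcription factor gene Ascl2 differed by 0.33 (SE 0.33), and all 4 of these had overlapping groups by their brightest probes. Further probes gave -0.21 for Slc22a18, and 0.04 and 0.34 for Nap1l4.

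In the Peg10-Sgce domain on chromosome 6 all 4 tested genes had differences above 0 by their brightest probes, with overlapping groups in each. Sgce, epsilon-sarcoglycan, was at 3.88, 3.43 and 3.83 in the wild types and at 3.91, 3.92 and 3.82 in the knockouts, a difference of 0.17 (SE 0.15, adjusted p = 0.498), which was -0.03 under normexp and -0.02 within the raw file number. Asb4, a SOCS box protein, differed by 0.42, which was -0.13 with the Y-linked term. Ppp1r9a, or neurabin, differed by 0.02. This was -0.05 within the slide, -0.12 when arrays were scaled to their median and -0.11 under normexp. Further Ppp1r9a probes that passed the filter gave -0.02 and 0.45. Calcr, the calcitonin receptor, was not well above background on any wild type array and was above it on all 3 knockout arrays, by which it entered the test. Its levels were -6.39, -6.97 and -6.65 against -5.08, -6.47 and -5.10, with overlapping groups. By group means it was at least 1.80-fold higher in the knockouts against the array background. The filter favoured a difference above 0 for this gene, so its p-value is not given.

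Other paternally expressed genes that stand alone differed in size and in direction. Slc38a4 on chromosome 15, an amino acid transporter important in placenta, was at -0.55, -0.75 and -0.08 in the wild types and at 0.27, 0.17 and -0.01 in the knockouts, a difference of 0.60 (SE 0.19, 1.52-fold, adjusted p = 0.113), with 0.54 for its further probe. Wild type 3 and knockout 3 lay within 0.07 of each other, and the difference was 0.22 with the Y-linked term and 0.64 within the slide. Zdbf2 on chromosome 1, a zinc finger gene, was at -6.07, -5.16 and -4.71 in the wild types and at -4.54, -4.47 and -4.41 in the knockouts, a difference of 0.84 (SE 0.32, adjusted p = 0.158), or 0.24 with the Y-linked term. Neither gene's groups overlapped.

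Nnat on chromosome 2, neuronatin, a small membrane protein, was at 2.32, 2.28 and 2.54 in the wild types and at 2.97, 2.65 and 2.62 in the knockouts, a difference of 0.36 (SE 0.14, adjusted p = 0.163), without overlap. It was 0.32 within the slide, 0.20 with the Y-linked term and 0.08 within the raw file number. Blcap, the maternally expressed gene that holds Nnat in an intron, was at 3.62, 3.63 and 3.46 in the wild types and at 3.52, 3.58 and 3.57 in the knockouts, a difference of -0.01 (SE 0.10) whose sign turned with the setting. A further Blcap probe gave 0.23, without overlap. Whether the differences of Nnat and Blcap are unlike was not tested.

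Rasgrf1 on chromosome 9, an exchange factor that activates Ras, was the only paternally expressed gene lower in the knockouts without overlap. It was at -2.66, -2.33 and -3.10 in the wild types and at -3.46, -3.47 and -3.19 in the knockouts, a difference of -0.68 (SE 0.20, adjusted p = 0.109). Wild type 3, without Y-linked signal, lay close to knockout 3. The difference was therefore smaller in size with the Y-linked term and within the raw file number, which both rest on wild type 3. The further Rasgrf1 probe went the opposite way, by 0.78 (adjusted p = 0.105 when every probe was fitted), so the gene's direction depends on the probe. Of the 19 imprinted genes with more than 1 tested probe, 12 had all probes on the same side of 0, and only Rasgrf1 had probes whose differences lay more than 1.5-fold apart.

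The remaining genes had overlapping groups. Nap1l5, a nucleosome assembly protein gene, was at -5.97, -5.87 and -5.73 in the wild types and at -5.79, -4.91 and -5.64 in the knockouts, a difference of 0.41 (SE 0.23). Its probe is dim and was above background on 3 of 3 wild type and 2 of 3 knockout arrays. Impact, which restrains the stress kinase GCN2, was at 0.90, 1.02 and 1.26 against 1.32, 1.38 and 1.17, a difference of 0.23 (SE 0.13) that was -0.09 within the raw file number. Zrsr1, a splicing factor gene on chromosome 11, was at 1.43, 1.60 and 1.45 against 1.14, 1.74 and 1.48, a difference of -0.04 (SE 0.16) whose sign turned with the setting.

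On chromosome 2, Gnas and H13 differed little by their brightest probes. Gnas, the stimulatory G protein alpha subunit with transcripts of either parental origin, was at 3.58, 3.71 and 3.69 in the wild types and at 3.70, 3.70 and 4.00 in the knockouts, a difference of 0.14 (SE 0.12). Its further probes gave 0.56 and 0.16. H13, signal peptide peptidase, was at 0.44, 0.39 and 0.48 against 0.08, 0.23 and 0.47, a difference of -0.18 (SE 0.13), with -0.12 and 0.35 for its further probes.

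**Figure D3:**
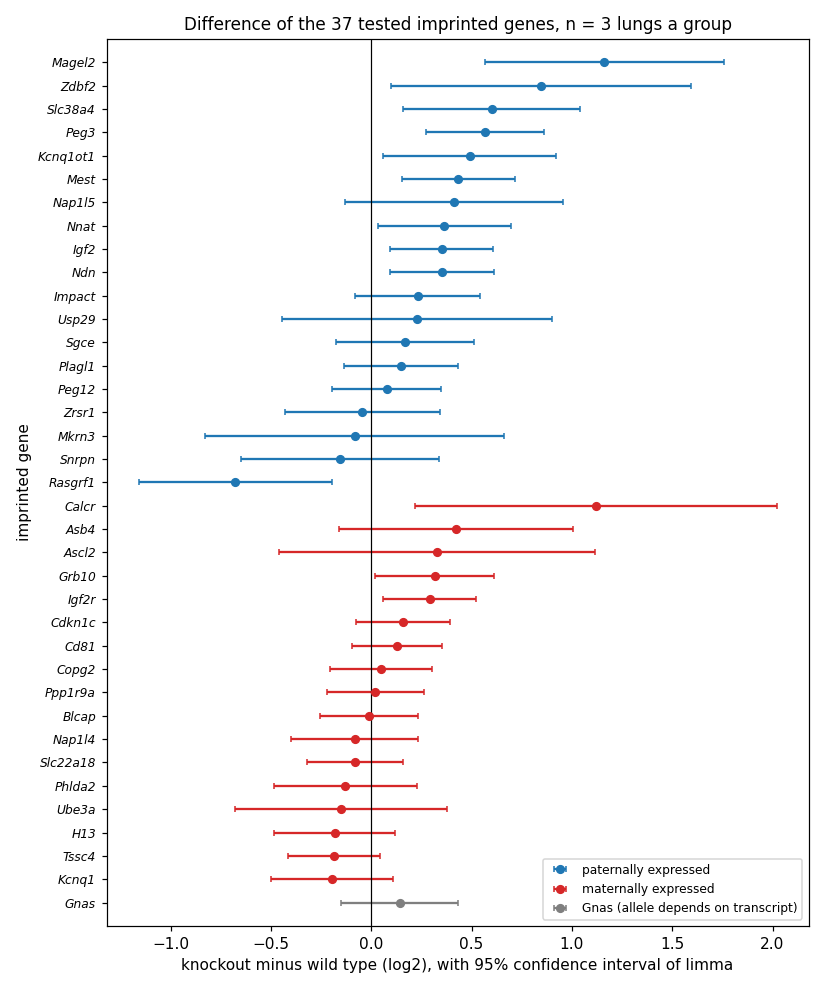
Difference between knockout and wild type lungs for each of the 37 tested imprinted genes (horizontal axis, log2, knockout minus wild type), with bars for the 95% confidence interval and colours for the parental copy expressed. Of the paternally expressed genes, 15 of 19 lie to the right of 0, against 9 of 17 maternally expressed genes.

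Differences were set beside those of other probes of the same brightness, because dim features were higher in the knockouts over the whole table. The median difference over all features was highest, at 0.18, for mean levels from -5 to -4 and lowest, at -0.09, for levels from 2 to 4. Magel2, Zdbf2 and Ascl2 lay in the first of these ranges, and Calcr, Nap1l5 and Usp29 below it. In the range from -5 to -4, 3 of 3 imprinted genes lay above 0, beside 65.5% of all features. Below -5 it was also 3 of 3, beside 59.0% of all features. Of the 8 imprinted genes with levels of 4 or more, 7 lay above 0, with a median of 0.22, while 39.4% of the 984 features in that range did, with a median of -0.06. In the range from 2 to 4, 4 of 7 imprinted genes lay above 0 (median 0.02), from 0 to 2 it was 4 of 8 (median 0.003), from -2 to 0 it was 4 of 6 (median 0.25) and from -4 to -2 it was 0 of 2. Mest, Igf2 and Grb10 are among those 8.

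**Figure D4:**
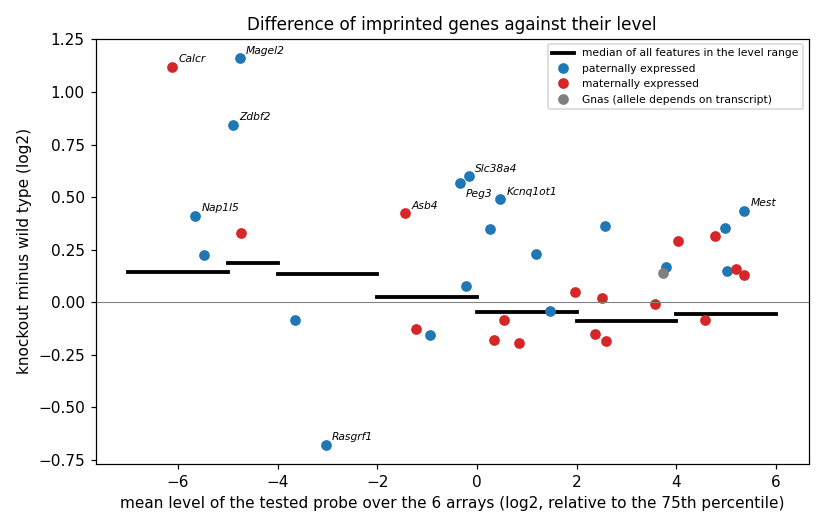
Difference between knockout and wild type (vertical axis, log2) against the mean level of the tested probe over the 6 arrays (horizontal axis, log2 relative to the 75th percentile), for the imprinted genes, with the median over all features in each range of level as a horizontal bar. These medians are highest, at 0.18, for levels from -5 to -4, lowest, at -0.09, for levels from 2 to 4, and -0.06 for levels of 4 or more, where 7 of 8 imprinted genes lie above 0.

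Other imprinted genes, a separate list that includes the Dlk1-Dio3 region, held 28 tested genes. Of these, 10 were above 0, with a median of -0.14, and 1 passed the test, where 0.725% of all features passed upward. This was Dio3, the deiodinase that inactivates thyroid hormone, which rose from -5.17, -5.63 and -5.25 to -3.72, -3.90 and -4.09, a difference of 1.45 (SE 0.16, adjusted p = 0.018). Slc22a3, an organic cation transporter imprinted in placenta, was not well above background on any knockout array. It entered the test only through the wild types, which favoured a difference below 0. By group means it was at least 1.42-fold lower in the knockouts against the array background. Tfpi2, a placental protease inhibitor, differed by -0.78. It also passed the filter only through the wild types, and was above background on 2 of 3 knockout arrays. Sfmbt2, a Polycomb gene, differed by 0.56 (adjusted p = 0.0674).

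Genes that set or keep imprints gave no called difference. Of 20 tested, 11 were above 0 and 0 passed, with a median of 0.05. An unadjusted p under 0.05 was found for 4 of the 20, beside 25.8% of all features. Tet2, which oxidises methylcytosine, differed by 0.38 (adjusted p = 0.11), Hells, a chromatin remodeller needed for DNA methylation, by 0.61 (adjusted p = 0.114), and Zfp57 by 0.30 (adjusted p = 0.131).

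In the rest of the IGF axis 8 of 17 genes were above 0 and 0 passed. An unadjusted p under 0.05 was found for 5 of the 17, beside 25.8% of all features. Igfbp2, an IGF binding protein, was at 0.18, -0.31 and 0.29 in the wild types and at 1.43, 1.29 and 0.85 in the knockouts, a difference of 1.14 (SE 0.21, adjusted p = 0.0555). Igfals, which carries IGF in plasma, was at -2.92, -3.23 and -3.39 against -3.85, -4.07 and -3.98, a difference of -0.79 (SE 0.15, adjusted p = 0.0555). The groups did not overlap for either gene.

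Cardiac muscle genes, another cell type that a lung sample can hold, went the other way. All 12 were below 0, 8 passed as lower (0.619% of all features did), and their mean level was 0.11 to 0.28 in the wild types and -1.28 to -1.18 in the knockouts. Fibroblast and mesenchyme genes, whose tissue expresses many imprinted genes, had a median of 0.01, with 5 of 10 above 0 and 0 called. Their mean level was 2.83 to 2.95 in the wild types and 2.64 to 2.85 in the knockouts. The part of cell composition in the imprinted gene values was not tested.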

How the data were processed

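Whole lung RNA of 3 wild type and 3 knockout embryos was read on 1-colour arrays. Per the file headers, Agilent Feature Extraction subtracted background and detrended each array, giving the deposited intensity per spot (43379 spots for 41174 probes) with no scaling between arrays; 0 spots were saturated. The authors also deposited log2 values, which matched quantile-normalized log2 intensities centred on the median of the wild types, with column medians of 0 for wild types and 0.0106, -0.00704 and -0.000925 for the knockouts. They served as an alternative.

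From each log2 intensity the 75th percentile of its array was taken off, without the 77 to 110 spots with outlier flags. Probes had to be well above background throughout 1 group or the other. RefSeq (GRCm38.p6) named 26690 of 41174 probes (64.8%); other probes kept their file name. A gene was its brightest probe. limma 3.58.1 in R 4.3.3 (lmFit, eBayes, two-sided) was fitted over 19867 features with Benjamini-Hochberg adjustment, and tested on simulated data. Exact permutation of 3 against 3 could not go below p = 0.1. Normexp (offset 50) used median spot signals, as the planned mean signals were not used here.

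Values are given on every array for the brightest gene of each domain, the 8 smallest p-values, genes whose groups do not overlap and selected growth genes; other genes of the text are given by their difference. Members and lists were chosen with earlier results of these data known. A bound ("at least") sets the brighter group's mean against the lowest signal well above background. Same-numbered wild type and knockout arrays had correlated deviations of -0.02, 0.04 and 0.03, so the numbers were not taken as pairs. Alternatives covered scaling, background, filter, probe choice, slide, raw file number, Y-linked signal and leaving out arrays. 3 arrays per group limit the precision.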

Additional observations from a re-analysis of the deposited data

How the results depend on the processing

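None of the 37 imprinted genes was called under any alternative except without wild type 3 or without knockout 2. Without wild type 3, 7 were called (Mest, Peg3, Magel2, Slc38a4, Zdbf2 and Asb4 higher, Rasgrf1 lower) while 1923 of 19867 features were. Without knockout 2, 1 was called (Calcr, which passed the filter only through the knockouts) while 77 features were. Leaving out an array gave 0 to 7 calls. Called differences without wild type 3 were 0.52 for Mest, 0.61 for Peg3, 1.32 for Magel2, 0.79 for Slc38a4, 1.15 for Zdbf2, 0.70 for Asb4 and -0.88 for Rasgrf1, and that of Calcr without knockout 2 was 1.58; the cause was not tested.

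Over all features the 267 calls became 0 under normexp (1585 at an unadjusted p under 0.05), 92 with probes above background on at least 1 array, 28 with no filter, 17 with the slide as a block, 0 with the raw file number as a block (1075 unadjusted), 23 with a term for Y-linked signal and 0 without the arrays with Y-linked signal (1373 unadjusted; chosen after seeing the data). Leaving out an array gave 35 to 1923, the highest without wild type 3; it was 35 without wild type 1, 57 without wild type 2, 60 without knockout 1, 77 without knockout 2 and 416 without knockout 3. With the replicate number as a block, 48 features and 0 imprinted genes were called, and the block changed no imprinted gene's call.

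The median over the 37 genes (0.16) was 0.22 under quantile normalization and with the authors' values, 0.017 when scaled to the array median, 0.23 with the mean over probes, 0.25 with every probe, 0.28 within the slide, 0.095 within the raw file number and 0.12 with the Y-linked term or without the arrays with that signal. The paternal median (0.35) was 0.21 when scaled to the array median, 0.094 within the raw file number, 0.20 with the Y-linked term or without those arrays, and 0.18 to 0.35 leaving out an array, lowest without knockout 2. The maternal median (0.02) was 0.10 under quantile normalization and with the authors' values, 0.095 within the raw file number, 0.10 with the Y-linked term or without those arrays, 0.12 with the mean over probes, -0.12 when scaled to the array median and -0.10 under normexp. Scaling to the median moved all features by -0.14 and normexp by 0.15; relative to that, the medians over the 37 genes were 0.16 and -0.006, the paternal medians 0.35 and 0.16 and the maternal medians 0.02 and -0.25.

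Of 479 recomputed differences of the 24 genes followed across settings, 444 kept their direction and side of the threshold, 29 turned sign and 6 newly passed. None of those that turned passed in any setting except Rasgrf1, called without wild type 3. Blcap was 0.069 under quantile normalization, 0.068 with the authors' values, 0.11 with the mean over probes and within the raw file number, 0.10 with the Y-linked term or without those arrays, and -0.067 to 0.018 leaving out an array. Zrsr1 was 0.0086 under quantile normalization, 0.0085 with the authors' values, 0.0225 within the raw file number and -0.19 to 0.11 leaving out an array, highest without knockout 1. Scaled to the median, Cd81 was -0.0125 and Gnas -0.0008. Under normexp, Cd81 was -0.058, Cdkn1c -0.069, Gnas -0.085, Plagl1 -0.030, Sgce -0.035 and Rasgrf1 0.17. With the mean over probes, H13 was 0.0155 and Rasgrf1 0.052. H13 was 0.047 within the slide. Within the raw file number, Impact was -0.091, Sgce -0.018 and Ube3a 0.009. Ube3a was -0.31 to 0.080 leaving out an array, highest without knockout 1.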
